A study of Mus musculus with 12 samples.

Results

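Untreated primary cultures of mouse neocortex were compared with adult neocortex to find which genes and which splice choices of the adult tissue the cultures lacked or exceeded. The cultures were made from neocortical cells dissociated from E16.5 embryos and grown for 14 days, with neither the transcription blocker DRB nor the GABA-A receptor blocker bicuculline. The tissue was neocortex of postnatal day 49 (P49). Both came from wild-type NMRI mice, an outbred stock, and gave polyadenylated RNA sequenced in stranded libraries. The comparison rests on 4 of the series' 12 libraries, 2 untreated cultures and 2 P49 tissues, and on the number of reads that cross each exon-exon junction. Of 608954 distinct junctions listed for the 8 libraries of the deposited table, 418629 had a read in at least 1 of these 4, and 187920 of those were introns of the GENCODE annotation on GRCm38. Neocortex of postnatal day 10 (P10), with 2 libraries, is set beside the results as a younger tissue. The P10 libraries and 2 libraries of cultures given DRB (50 µM for 2 hours) also entered the main fits. All 8 libraries thus shared an estimate of the spread, on which the adjusted p-values depend.

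A dissociated culture keeps the neurons and glial precursors present at the embryonic age of dissection, without blood flow, long-range axons or sensory input. Adult neocortex holds mature excitatory neurons and interneurons, myelinating oligodendrocytes, astrocytes, microglia and a dense vascular bed. Neurons, glia and vascular cells each splice many shared genes in their own way, because proteins such as RBFOX, NOVA, SRRM4 and PTBP1 switch exons on or off in a cell type and at a stage of maturation. Very short exons, called microexons, are known as a class that neurons include and other cells skip.

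The cultures held 49557516 and 54706157 spliced reads and the P49 tissues 69124860 and 61449312, of which 99.20% to 99.29% fell on annotated introns. Gene levels are sums over the annotated junctions of a gene, given as CPM (counts scaled to library size, with TMM adjustment), and depend on the number of junctions, so they are compared between groups and not between genes. Replicates differed by more than counting noise in both groups (chi-square per degree of freedom 7.45 in cultures and 11.1 in P49 neocortex). Neuronal genes were present in both: Snap25, a protein of vesicle fusion, had 316 and 346 CPM in cultures, against 3044 and 2969 CPM in P49 neocortex, and Map2, a dendritic microtubule protein, 445 and 436 CPM in cultures and 427 and 418 CPM in P49 neocortex. Xist, the RNA that silences an X chromosome in females, had 166 and 164 CPM in cultures, against 0 and 0 CPM in P49 neocortex, at least 3440-fold higher in cultures against a floor of 3 reads per library. The Y-linked Ddx3y had 47.9 and 44.4 CPM in cultures and 83 and 84.8 CPM in P49 neocortex. The labels give no sex, so sex and group cannot be told apart for genes that differ by sex.

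The 2 groups differed in most genes. Of 15689 genes tested, 6153 were higher in cultures (39.2%) and 5791 lower (36.9%) by edgeR's quasi-likelihood test at an adjusted p of 0.05, 2699 and 2884 of them by 2-fold or more and 647 and 866 by 8-fold or more. The median log2 change of all genes tested was 0.04. "Higher", "lower", "rose" and "fell" below stand for genes past that test. In such bulk RNA, fewer cells of a type and less RNA per cell cannot be told apart.

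Above a mean expression of 3 (log2 CPM over the 4 libraries), the 10 largest increases were in Lrp2, C3, Thbs1, Vim, A2m, Shroom3, Gpnmb, Spp1, Cd109 and Top2a. Lrp2, the endocytic receptor megalin, had 285 and 237 CPM in cultures, against 0.316 and 0.186 CPM in P49 neocortex (log2 change 9.99 ± 0.20 (SE), adjusted p = 2.9e-12). The complement protein C3 had 725 and 784 CPM in cultures, against 1.93 and 1.27 CPM in P49 neocortex (log2 change 8.87 ± 0.12 (SE), adjusted p = 4.4e-13). Vim, vimentin, an intermediate filament of immature and reactive glia and of mesenchymal cells, had 3661 and 3331 CPM in cultures, against 42.1 and 46.5 CPM in P49 neocortex (log2 change 6.30 ± 0.07 (SE), adjusted p = 3.3e-13). In each of these 3 both culture libraries lay far above both P49 libraries. The secreted matrix protein Thbs1 (thrombospondin) had 761 and 676 CPM in cultures, against 3.61 and 3.03 CPM in P49 neocortex, and Spp1 (osteopontin) 245 and 247 CPM in cultures and 6.19 and 2.25 CPM in P49 neocortex, with more spread in the tissue than in the cultures.

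The 10 largest decreases were in Cpne9, Mobp, Ptgds, Vtn, Lamp5, Flt1, Coro6, Robo3, Mal and Arc. Cpne9, a calcium-dependent membrane-binding copine, had 0.47 and 0.747 CPM in cultures, against 155 and 143 CPM in P49 neocortex (log2 change -7.91 ± 0.12 (SE), adjusted p = 9.3e-13). Ptgds, which makes prostaglandin D in oligodendrocytes and meninges, had 22.3 and 22.6 CPM in cultures, against 2027 and 2182 CPM in P49 neocortex (log2 change -6.55 ± 0.07 (SE), adjusted p = 2.7e-13). Lamp5, a membrane protein of some cortical neurons, had 2.95 and 2.92 CPM in cultures, against 199 and 183 CPM in P49 neocortex (log2 change -6.02 ± 0.13 (SE), adjusted p = 4.8e-12). The groups did not overlap for these 20 genes, which their choice as the largest changes fixes, and they did not overlap for 88.9% of all genes tested.

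**Figure D1:**
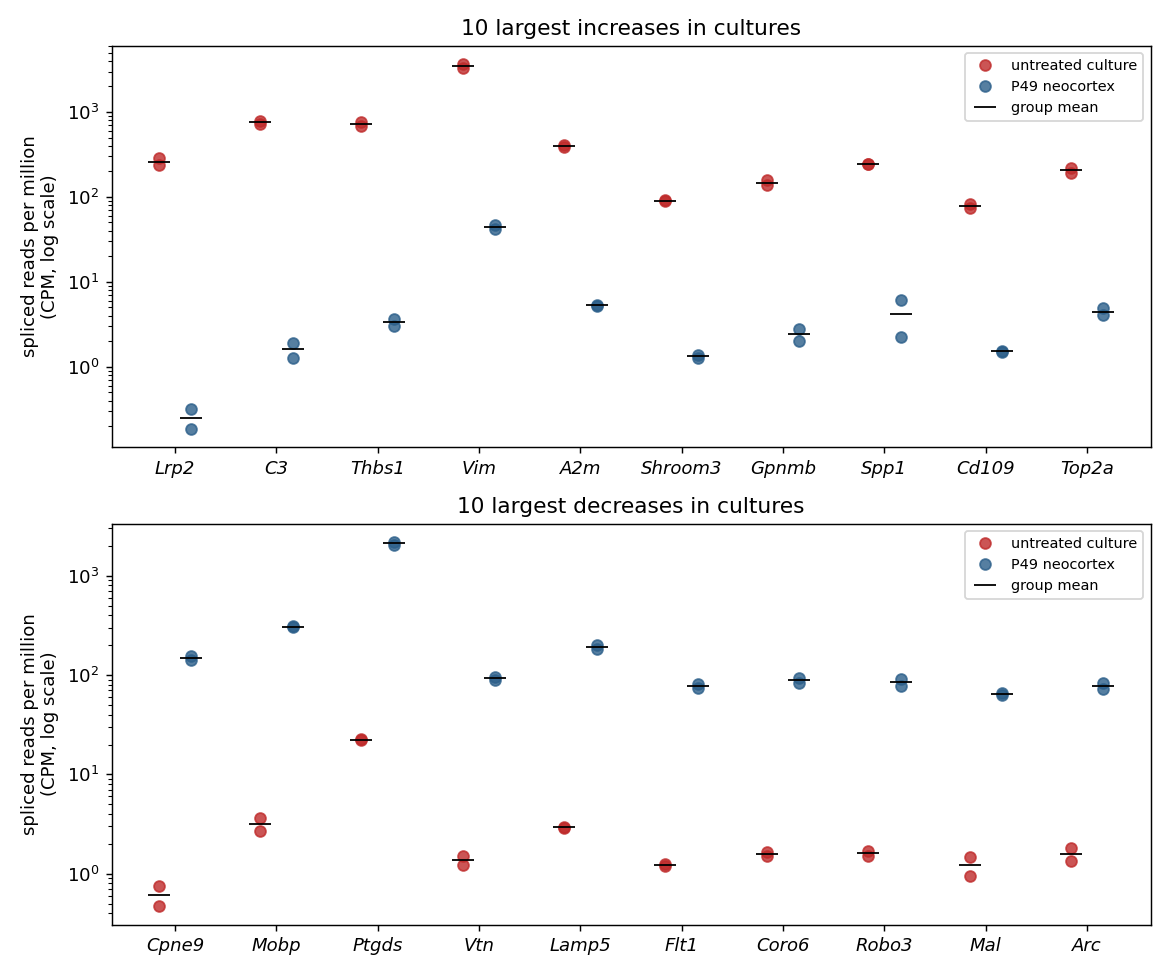
Gene level (CPM, log axis) in each library for the 10 largest increases (upper panel) and the 10 largest decreases (lower panel) among called genes above a mean expression of 3 (log2 CPM). Red points are the 2 untreated cultures, blue points the 2 P49 tissues, and black bars the group means. Lrp2 stands at 285 and 237 CPM in cultures against 0.316 and 0.186 in tissue, and Cpne9 at 0.47 and 0.747 against 155 and 143.

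Of the 34 gene lists, those of red blood cells, endothelium and myelin had the lowest medians in cultures. All 5 red cell genes were lower, and the haemoglobin gene Hbb-bs had 0 reads in both cultures against 16 and 17.4 CPM in P49 neocortex, at least 310.4-fold lower in cultures (floor of 3 reads per library). The values of haemoglobin genes are uncertain, because near-identical copies can share reads. Of 10 endothelial markers 7 were lower and 1 higher, with a median log2 change of -5.89 against 0.04 for all genes. The endothelial cadherin Cdh5 had 0.0752 and 0.051 CPM in cultures, against 16.6 and 15.5 CPM in P49 neocortex (log2 change -7.96 ± 0.18 (SE), adjusted p = 6.1e-12), and Flt1, a VEGF receptor, 1.26 and 1.21 CPM in cultures and 81.8 and 73.6 CPM in P49 neocortex. Kdr, the other main VEGF receptor, went the other way with 110.3 and 92.6 CPM in cultures, against 24.9 and 23.7 CPM in P49 neocortex (log2 change 2.06 ± 0.08 (SE), adjusted p = 5.6e-10). P10 neocortex averaged 95.6 CPM of Kdr.

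Of 11 mural cell markers 6 were lower and 4 higher, where 36.9% of all genes tested were lower and 39.2% higher. The pericyte gene Rgs5 had 0.0564 and 0.119 CPM in cultures, against 26.1 and 22.3 CPM in P49 neocortex, the matrix protein Vtn 1.5 and 1.24 CPM in cultures and 89.2 and 95.6 CPM in P49 neocortex, and Abcc9, a subunit of the pericyte potassium channel, 0 and 0.051 CPM in cultures and 18.6 and 15.9 CPM in P49 neocortex. The contractile genes Acta2, Tagln, Myl9 and Cnn1 were the 4 higher ones. Acta2, smooth muscle actin, had 613 and 492 CPM in cultures, against 21.8 and 18.9 CPM in P49 neocortex (log2 change 4.76 ± 0.13 (SE), adjusted p = 2.4e-11), and Tagln, transgelin, 448 and 367 CPM in cultures and 9.53 and 9.69 CPM in P49 neocortex. Another contractile gene, the smooth muscle myosin Myh11, was lower (1.24 and 1.48 CPM in cultures and 21.7 and 18.8 CPM in P49 neocortex). Des, the muscle filament desmin, was at 0 in both cultures and at 2.75 and 2.25 CPM in P49 neocortex. Of 12 fibroblast markers 8 were lower and 3 higher, among the lower ones the collagen Col1a2 (22.8 and 19.7 CPM in cultures and 78.5 and 84.8 CPM in P49 neocortex) and among the higher ones fibronectin, Fn1 (396 and 344 CPM in cultures and 122 and 132 CPM in P49 neocortex).

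All 13 myelin genes were lower, with a median log2 change of -5.71. Mbp, myelin basic protein, had 18.3 and 22.1 CPM in cultures, against 743 and 718 CPM in P49 neocortex (log2 change -5.17 ± 0.11 (SE), adjusted p = 3.3e-12), and Mog, on the outer myelin surface, 0.263 and 0.526 CPM in cultures and 79.6 and 89.5 CPM in P49 neocortex. At P10, when myelin is still being laid down, Mbp averaged 323 CPM. Precursor markers were not uniformly low: of 6, 4 were lower and 2 higher, against 36.9% and 39.2% of all genes tested. Pdgfra, the growth factor receptor of oligodendrocyte precursors, had 108 and 115 CPM in cultures, against 65.1 and 66.5 CPM in P49 neocortex (log2 change 0.76 ± 0.05 (SE), adjusted p = 6.4e-08), and Olig2, their lineage transcription factor, 10.8 and 12.3 CPM in cultures and 3.79 and 4.08 CPM in P49 neocortex. Gpr17 and Bcas1, which mark cells committed to differentiation, were lower, Bcas1 with 2.46 and 2.63 CPM in cultures, against 110.0 and 95 CPM in P49 neocortex.

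Read as presence or absence, 116 genes (0.739% of those tested) were called lower with under 0.1 CPM in both cultures and at least 1 CPM in both P49 tissues, and 37 (0.236%) were called higher with the groups exchanged. The 8 most abundant of the first kind in P49 neocortex were Opalin, Adgrl4, Gjb6, Hapln4, Abcc9, Hbb-bs, Slc6a20a, Cdh5. They include the astrocyte gap junction protein Gjb6 (0.0564 and 0.034 CPM in cultures and 18.4 and 18.5 CPM in P49 neocortex), the oligodendrocyte membrane protein Opalin (0.094 and 0.0679 CPM in cultures and 29.2 and 30.5 CPM in P49 neocortex), and Hapln4, a link protein of perineuronal nets (0.0188 and 0.0849 CPM in cultures and 19.8 and 16.6 CPM in P49 neocortex). The endothelial adhesion receptor Adgrl4 had 0 reads in both cultures and 18.6 and 18.5 CPM in P49 neocortex, at least 345-fold lower. The 8 most abundant of the second kind in cultures were Xist, Glycam1, A730049H05Rik, Atp6v0d2, B3gnt5, Lilr4b, Otx2, Prrg4. Otx2, a transcription factor of choroid plexus and other forebrain midline derivatives, had 5.34 and 4.19 CPM in cultures, against 0.0903 and 0.0508 CPM in P49 neocortex, and the mucin-like Glycam1 38 and 40.7 CPM in cultures and 0.0301 and 0.0508 CPM in P49 neocortex.

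Of 12 astrocyte markers 6 were higher and 5 lower, with a median log2 change of 0.46. Of all genes tested, 39.2% were higher and 36.9% lower. Higher were Slc1a3, a glutamate transporter (1006 and 1002 CPM in cultures and 289.8 and 320.0 CPM in P49 neocortex), Mlc1 (879 and 880.5 CPM in cultures and 189 and 181 CPM in P49 neocortex), and Sox9, a transcription factor of glial identity (37.8 and 41.9 CPM in cultures and 4.59 and 5.85 CPM in P49 neocortex). Lower were Slc1a2, the glutamate transporter dominant in the adult forebrain (121 and 121 CPM in cultures and 445 and 401 CPM in P49 neocortex), S100b (1.45 and 1.85 CPM in cultures and 76.5 and 77.4 CPM in P49 neocortex) and the glycolytic enzyme Aldoc (347 and 378 CPM in cultures and 1064 and 1007 CPM in P49 neocortex). The reactive glia list had 12 of 14 higher and 1 lower, with a median of 3.01. Lcn2, a secreted iron-siderophore binder of reactive astrocytes, had 55 and 68 CPM in cultures, against 0.166 and 0.102 CPM in P49 neocortex (log2 change 8.81 ± 0.18 (SE), adjusted p = 3.6e-12). Osmr, a cytokine receptor, had 79 and 78.4 CPM in cultures, against 3.31 and 3.51 CPM in P49 neocortex, and Gfap, the astrocyte filament, 184 and 196 CPM in cultures and 100.5 and 81.8 CPM in P49 neocortex. Gfap changed far less than its fellow filament Vim on the log2 scale (1.06 for Gfap and 6.30 for Vim; the difference between the 2 was not tested).

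Of 14 microglial markers 7 were lower and 3 higher, where 36.9% of all genes tested were lower and 39.2% higher. Lower were P2ry12, a purine receptor of brain microglia (0.132 and 0.17 CPM in cultures and 9.45 and 8.25 CPM in P49 neocortex), Siglech (0 and 0.017 CPM in cultures and 6.07 and 6.85 CPM in P49 neocortex) and Tmem119 (0 and 0.051 CPM in cultures and 1.96 and 1.59 CPM in P49 neocortex). Csf1r, the survival receptor of these cells, had 13.6 and 16.8 CPM in cultures, against 158 and 160.0 CPM in P49 neocortex (log2 change -3.39 ± 0.09 (SE), adjusted p = 2.2e-11). Trem2, a lipid receptor of phagocytic microglia, was higher (19.8 and 24.4 CPM in cultures and 11.1 and 8.3 CPM in P49 neocortex).

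All 15 cell cycle genes were higher, with a median log2 change of 4.06. Cdk1, the mitotic kinase, had 44.5 and 39.6 CPM in cultures, against 0.813 and 0.678 CPM in P49 neocortex (log2 change 5.81 ± 0.12 (SE), adjusted p = 4.3e-12), and Top2a, which untangles replicated DNA, 219.8 and 193 CPM in cultures and 4.89 and 4.02 CPM in P49 neocortex. P10 neocortex averaged 8.86 CPM of Cdk1 and 33.9 CPM of Top2a. All 6 tested targets of YAP, a transcriptional coactivator that responds to cell spreading and stiff surfaces, were higher, such as the junction adaptor Ajuba (34.6 and 32.1 CPM in cultures and 2.3 and 1.95 CPM in P49 neocortex). Of 7 ependymal and choroid plexus markers 6 were higher. Foxj1, the master factor of motile cilia, had 45.8 and 41 CPM in cultures, against 0.933 and 0.763 CPM in P49 neocortex (log2 change 5.67 ± 0.16 (SE), adjusted p = 4.1e-11), Folr1, a folate receptor of choroid plexus, 14.3 and 13.7 CPM in cultures and 0.572 and 0.39 CPM in P49 neocortex, and Ttr, the thyroxine carrier, 207 and 198 CPM in cultures and 8.99 and 5.63 CPM in P49 neocortex. This list sums to 286 and 268 CPM in cultures and 17.9 and 12.6 CPM in P49 neocortex.

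Neuronal genes were mostly lower. Of 12 general neuronal markers 9 were lower and 2 higher, with a median log2 change of -2.14. Eno2, the neuronal enolase, had 237 and 257 CPM in cultures, against 1760.5 and 1791 CPM in P49 neocortex (log2 change -2.85 ± 0.05 (SE), adjusted p = 1.8e-12), Slc17a7, the vesicular glutamate transporter of cortical excitatory cells, 263 and 294 CPM in cultures and 1835 and 1929 CPM in P49 neocortex, and Rbfox3, the splicing factor detected as NeuN, 87.2 and 90 CPM in cultures and 329.9 and 312 CPM in P49 neocortex. The summed level of the list was 2574 and 2695 CPM in cultures and 9779 and 9821 CPM in P49 neocortex, while that of the reactive glia list was 4238 and 3916 CPM in cultures and 191 and 191 CPM in P49 neocortex. Vim alone had 3661 and 3331 CPM of the reactive glia sums in cultures. The share of each cell type was not measured, and its part in the neuronal differences was not tested. Genes of growing neurons went the other way: of 14, 13 were higher and 1 lower, with a median of 2.83. Dpysl3, which acts in axon growth, had 769 and 773 CPM in cultures, against 43.3 and 48.9 CPM in P49 neocortex (log2 change 4.06 ± 0.07 (SE), adjusted p = 1.8e-12), and Dcx (doublecortin), which binds microtubules during migration, 54.3 and 54.6 CPM in cultures and 6.08 and 5.73 CPM in P49 neocortex. P10 neocortex averaged 791 CPM of Dpysl3 and 30.3 CPM of Dcx, and against P49 it had 28.6% of all genes higher and 27.9% lower, with a median for this list of 2.12, from a comparison that shares the P49 libraries.

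Among upper layer markers 4 of 8 were lower and 2 higher, where 36.9% of all genes tested were lower and 39.2% higher. The homeobox gene Cux2 had 24 and 26.3 CPM in cultures, against 135 and 123 CPM in P49 neocortex. Of 9 deep layer markers 8 were lower, among them Tbr1, a factor of layer 6 neurons (13.1 and 13.7 CPM in cultures and 65.6 and 62.7 CPM in P49 neocortex), and Crym, a thyroid hormone binder (11.8 and 13.5 CPM in cultures and 129 and 146 CPM in P49 neocortex). Fezf2, which specifies subcerebral projection neurons, was the one not called (13.8 and 15.8 CPM in cultures and 18.1 and 16.4 CPM in P49 neocortex). Interneuron markers had 10 of 16 lower and 4 higher. Pvalb, a calcium buffer of fast-spiking cells, had 0.527 and 0.611 CPM in cultures, against 79.1 and 70 CPM in P49 neocortex (log2 change -7.02 ± 0.28 (SE), adjusted p = 5.8e-10), Sst, somatostatin, 12.1 and 12.7 CPM in cultures and 76 and 71.8 CPM in P49 neocortex, and Vip 32 and 31.8 CPM in cultures and 50.6 and 46.9 CPM in P49 neocortex. Pvalb averaged 5.11 CPM at P10. Higher were Calb2, Dlx1, Erbb4 and Reln, Reln with 333 and 340.4 CPM in cultures, against 202 and 198 CPM in P49 neocortex. All 10 striatal genes were lower, and their summed level was 72.9 and 72.7 CPM in cultures and 889.8 and 778 CPM in P49 neocortex. Ppp1r1b (DARPP-32), a signalling protein of medium spiny neurons, had 28.3 and 26.2 CPM in cultures, against 468 and 407 CPM in P49 neocortex. Whether striatal tissue contributed to the P49 libraries was not tested.

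All 21 presynaptic genes were lower, with a median log2 change of -1.73. Syt2, the calcium sensor of fast inhibitory terminals, had 0.79 and 0.747 CPM in cultures, against 39.2 and 35.6 CPM in P49 neocortex (log2 change -5.60 ± 0.12 (SE), adjusted p = 4.8e-12), and the complexin Cplx1 53.8 and 56.5 CPM in cultures and 349 and 331 CPM in P49 neocortex. Of 21 glutamate postsynaptic genes 20 were lower, with a median of -1.05. Camk2a, the kinase of synaptic plasticity, had 387 and 404 CPM in cultures, against 3712 and 3716 CPM in P49 neocortex (log2 change -3.23 ± 0.04 (SE), adjusted p = 4.4e-13). The NMDA receptor subunits were not alike: Grin2a, which replaces Grin2b as synapses mature, had 6.09 and 6.47 CPM in cultures, against 21.2 and 21.5 CPM in P49 neocortex (log2 change -1.76 ± 0.10 (SE), adjusted p = 1.1e-08), whereas Grin2b was not called, with 20.5 and 20.7 CPM in cultures and 17.9 and 18.9 CPM in P49 neocortex. Grin2c, found in glia and interneurons, had 1.69 and 1.36 CPM in cultures, against 51.1 and 52 CPM in P49 neocortex.

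GABA-A receptor genes had 7 of 12 lower and 2 higher. The extrasynaptic subunit Gabrd had 4.78 and 5.72 CPM in cultures, against 122 and 115 CPM in P49 neocortex (log2 change -4.49 ± 0.11 (SE), adjusted p = 1.1e-11), and Gabra5, which peaks early in life, was higher (75.9 and 80.1 CPM in cultures and 49.1 and 53.6 CPM in P49 neocortex). Of 23 ion channel genes 21 were lower and 1 higher, with a median of -1.58. Scn8a, a sodium channel of the axon initial segment, had 64.7 and 69.1 CPM in cultures, against 278 and 269.8 CPM in P49 neocortex (log2 change -2.03 ± 0.06 (SE), adjusted p = 3.2e-11), and Kcnc1, a fast potassium channel, 2.69 and 3.07 CPM in cultures and 32 and 26.6 CPM in P49 neocortex. Among 13 receptors for neuromodulators 11 were lower and 1 higher, with the histamine receptor Hrh3 at 3.35 and 3.11 CPM in cultures and 33.6 and 29.7 CPM in P49 neocortex. The perineuronal net list had 6 of 10 higher and 4 lower, where 39.2% of all genes tested were higher and 36.9% lower. Ptprz1 (1387 and 1278 CPM in cultures and 228 and 245 CPM in P49 neocortex) and tenascin Tnc (164 and 149 CPM in cultures and 9.74 and 13.2 CPM in P49 neocortex) were higher, and the link proteins Hapln2 (0.0188 and 0 CPM in cultures and 13.7 and 11.6 CPM in P49 neocortex) and Hapln4 lower.

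**Figure D2:**
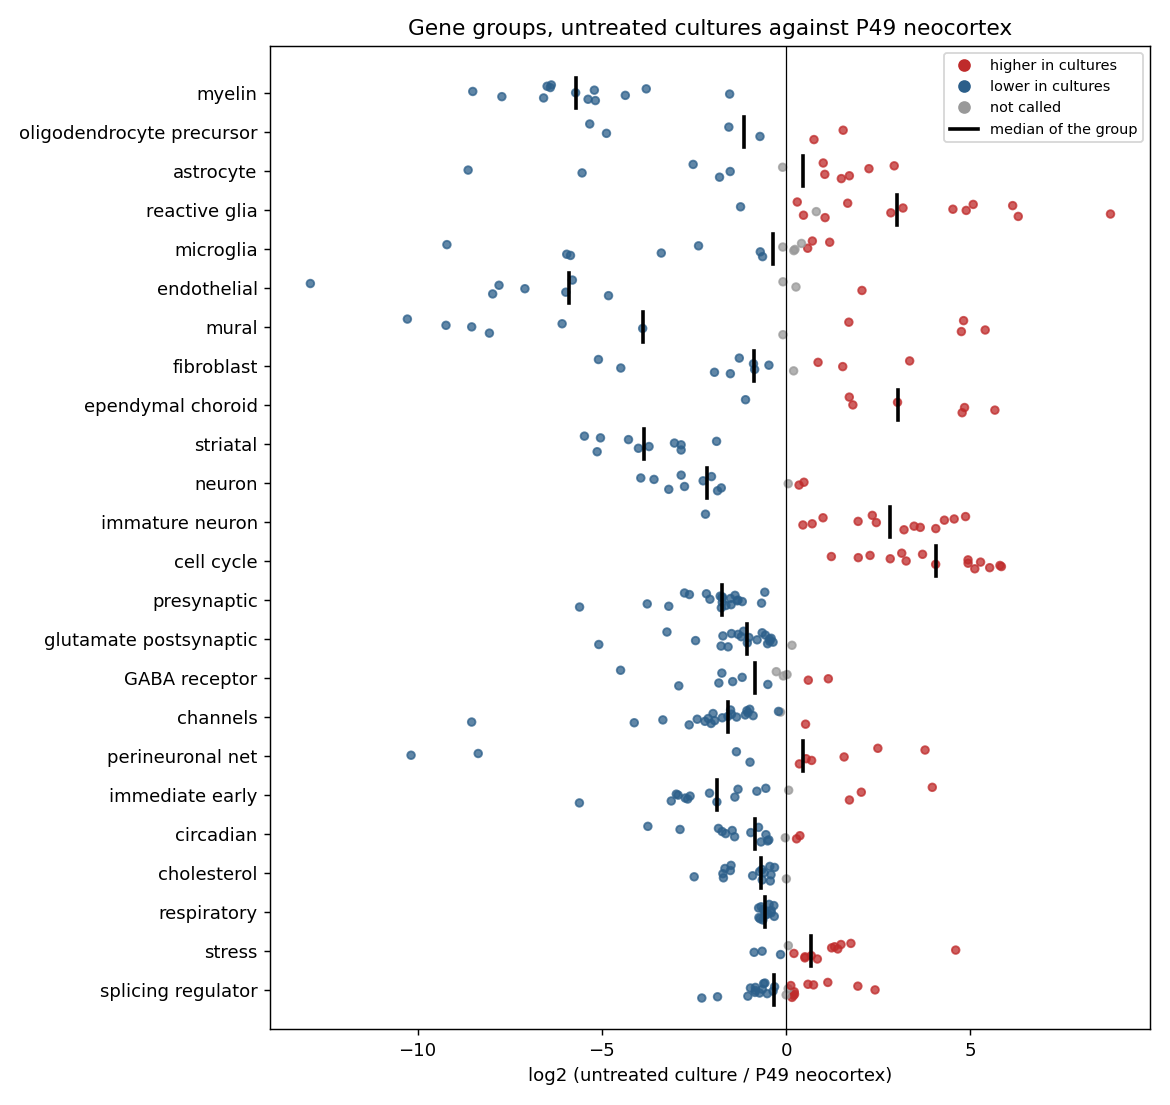
Log2 ratio of untreated cultures over P49 neocortex for each tested member of 24 gene groups. Points are genes, red where called higher in cultures, blue where called lower and grey where not called, and black lines mark group medians. Myelin stands at a median of -5.71 and cell cycle at 4.06, and astrocyte, mural and perineuronal net genes lie on both sides of 0.

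Genes that neuronal activity induces were mostly lower in cultures. Of 17 immediate early genes 13 were lower and 3 higher. P10 neocortex against P49 likewise had 13 of the 17 lower and 2 higher. The list summed to 147 and 150 CPM in cultures, 146 and 137 CPM in P10 and 445 and 436 CPM in P49 neocortex. The cause was not tested. Arc, a regulator of synaptic strength, had 1.34 and 1.83 CPM in cultures, against 83.2 and 72.4 CPM in P49 neocortex (log2 change -5.61 ± 0.19 (SE), adjusted p = 1.4e-10), and Fos, a subunit of AP-1, 12.8 and 12.4 CPM in cultures and 46.8 and 45.7 CPM in P49 neocortex. The orphan receptors Nr4a1 and Nr4a3 differed in direction, Nr4a1 with 14.5 and 14.3 CPM in cultures, against 116 and 111 CPM in P49 neocortex and Nr4a3 with 36.4 and 36.8 CPM in cultures and 8.64 and 9.12 CPM in P49 neocortex. The other 2 higher ones were Fosl2 and the stress factor Atf3 (4.91 and 5.33 CPM in cultures and 0.436 and 0.203 CPM in P49 neocortex). Of 12 late activity genes 7 were lower, such as the pentraxin Nptx1 (5.89 and 6.3 CPM in cultures and 84.4 and 92.8 CPM in P49 neocortex).

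Clock and hormone genes differed as well, as did 76.1% of all genes tested. P10 neocortex against P49 had 14 of 16 circadian genes lower and 1 higher, with a median log2 change of -1.03. The median in cultures was -0.85. Of 11 hormone-responsive genes, P10 neocortex had 8 lower and 2 higher. In cultures, 13 of the 16 circadian genes were lower and 2 higher. Ciart had 2.18 and 2.02 CPM in cultures and 30.6 and 25.9 CPM in P49 neocortex. The clock output factor Dbp had 24.4 and 25.5 CPM in cultures and 85.2 and 81 CPM in P49 neocortex. Among 11 genes that respond to thyroid hormone or glucocorticoids 7 were lower and 3 higher: the thyroid-responsive Hr had 5.89 and 6.39 CPM in cultures, against 58.9 and 53.9 CPM in P49 neocortex, and the metallothionein Mt2 1576 and 1459 CPM in cultures and 183 and 127 CPM in P49 neocortex. Of 16 cholesterol synthesis and uptake genes 15 were lower, with a median log2 change of -0.68, and the list summed to 832 and 814 CPM in cultures and 1343 and 1403 CPM in P49 neocortex. All 14 respiratory chain genes were lower by a small and even amount, with log2 changes of -0.74 to -0.32. The stress list had 11 of 15 higher and 3 lower, led by the haem oxygenase Hmox1 (96.5 and 111 CPM in cultures and 3.94 and 4.61 CPM in P49 neocortex), and the interferon and antigen presentation list 8 of 12 higher and 1 lower, led by the peptide transporter Tap1 (14.6 and 15.5 CPM in cultures and 2.69 and 2.44 CPM in P49 neocortex).

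Of 26 regulators of splicing, 10 were higher and 14 lower, where 39.2% of all genes tested were higher and 36.9% lower. Ptbp1, a repressor of neuronal exons found in non-neuronal cells and precursors, had 156 and 153 CPM in cultures, against 38.7 and 41.1 CPM in P49 neocortex (log2 change 1.95 ± 0.05 (SE), adjusted p = 2.7e-11). Its neuronal relative Ptbp2 differed little, with 136 and 135 CPM in cultures and 119.6 and 127 CPM in P49 neocortex (log2 change 0.13). Rbfox1 had 46.3 and 49.3 CPM in cultures, against 238 and 228 CPM in P49 neocortex (log2 change -2.29 ± 0.06 (SE), adjusted p = 1.2e-11), and Rbfox2, which many cell types share, 144 and 142 CPM in cultures and 126 and 130.2 CPM in P49 neocortex. Mbnl2, which drives adult exon patterns, had 36.2 and 36 CPM in cultures, against 65.1 and 63.4 CPM in P49 neocortex, and Qk, a glial regulator, 255 and 242 CPM in cultures and 114 and 112 CPM in P49 neocortex. The microexon activator Srrm4 had 17.9 and 19 CPM in cultures, against 22.7 and 23 CPM in P49 neocortex (log2 change -0.31 ± 0.07 (SE), adjusted p = 0.0022) and its relative Srrm3 20.3 and 22.9 CPM in cultures and 40.2 and 36.7 CPM in P49 neocortex. Both were lower, with a log2 change of -0.83 for Srrm3.

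Exon choice was measured first as PSI, the percent of junction reads that include an exon rather than skip it. Both inclusion junctions and a skipping junction were listed in the deposited table for 3653 annotated exons, of which 2802 had enough reads. With an adjusted p of 0.05 and a difference of at least 10 points required, 42 exons were included more in cultures (1.5% of those tested) and 155 less (5.53%), together 7.03% and in 179 genes. Exons whose 2 flanking junctions carry very unequal reads may be paired with another exon or end rather than skipped, and 30 of the 42 and 124 of the 155 had both junctions in use (the lower at 25% or more of the higher).

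Among the largest losses of inclusion in cultures were those in C2cd5, Tpd52l2, Prpf18, Scn2a, Ptprs, Myo5b, Ptprf, Agfg1, Cdc42bpa, Actn4 and Ttc7b. Tpd52l2, a vesicle trafficking protein, included its 27-nt exon at 2.95% and 2.74% in cultures, against 75.9% and 72.6% in P49 neocortex (difference -71.4 points, adjusted p = 1.3e-12). In C2cd5, a lipid-binding protein of glucose transporter vesicles, inclusion of a 33-nt exon was 9.79% and 8.3% in cultures, against 83.5% and 80.1% in P49 neocortex (difference -72.8 points, adjusted p = 6.6e-15), and P10 neocortex had 17.3% and 8.56%. The receptor phosphatases Ptprs and Ptprf, relatives that organise synapses, each lost a 27-nt exon, Ptprs with 28.2% and 34.3% in cultures, against 87.7% and 90% in P49 neocortex (difference -57.6 points, adjusted p = 9.9e-10) and Ptprf with 28.3% and 30.3% in cultures, against 80.3% and 82.4% in P49 neocortex (difference -52 points, adjusted p = 6.6e-11). For all 4 exons both culture libraries lay well below both P49 libraries, which their choice among the largest losses fixes. The groups did not overlap for 45.4% of all exons with a listed skipping junction. Actn4, which crosslinks actin, had 18.2% and 18.9% in cultures, against 66.6% and 68.1% in P49 neocortex, but 1 of its flanking junctions had nearly no reads, and with the lower junction alone the difference was -0.204 points (adjusted p = 1).

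The exons of Tpd52l2, C2cd5, Ptprs and Ptprf are shown because each is short, coding and mostly skipped in cultures, and a multiple of 3 nt long. They come from GENCODE transcripts on GRCm38, 5′ to 3′, with the exon in capitals and 12 bases of the neighbouring exons in lower case.
Tpd52l2 (chr2:181510504-181510530, plus strand, 27 nt): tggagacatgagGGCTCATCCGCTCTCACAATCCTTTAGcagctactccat
C2cd5 (chr6:143066186-143066218, minus strand, 33 nt): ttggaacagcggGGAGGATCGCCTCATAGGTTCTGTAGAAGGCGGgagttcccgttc
Ptprs (chr17:56427791-56427817, minus strand, 27 nt): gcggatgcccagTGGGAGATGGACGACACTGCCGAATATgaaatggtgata
Ptprf (chr4:118227819-118227845, minus strand, 27 nt): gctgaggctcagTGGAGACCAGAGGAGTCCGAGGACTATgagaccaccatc

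The largest gains of inclusion in cultures were smaller and included those in Xpo1, Wdfy3, Stim1, Scn8a, Golga4, Synrg, Afdn, Kdm5a, Tbc1d19, Dnal4 and Myo5a. Xpo1, the nuclear export receptor, included a 64-nt exon outside its annotated coding sequence at 51.4% and 53.9% in cultures, against 9.73% and 8.83% in P49 neocortex (difference 43.4 points, adjusted p = 2.7e-19). Wdfy3, an autophagy adaptor, included a 54-nt exon at 42.8% and 40.5% in cultures, against 11.9% and 11.8% in P49 neocortex (difference 29.8 points, adjusted p = 5.7e-09), Stim1, the calcium sensor of the endoplasmic reticulum, a 93-nt exon at 32.5% and 32.7% in cultures, against 4.7% and 7.75% in P49 neocortex (difference 26.4 points, adjusted p = 3.6e-10), and Myo5a, a motor of organelle transport, an 81-nt exon at 15.7% and 15.1% in cultures, against 1.39% and 1.24% in P49 neocortex (difference 14.1 points, adjusted p = 2.3e-20). The groups did not overlap in these, which their choice as the largest gains fixes, and they did not overlap for 45.4% of all exons with a listed skipping junction. Scn8a and Tbc1d19 lost their calls when the lower flanking junction alone was used (differences 1.8 and 4.1 points, adjusted p = 0.12 and 0.39). Afdn lost its call without either of 2 libraries, and Kdm5a without 1 (adjusted p = 0.052, 0.055 and 0.17).

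**Figure D3:**
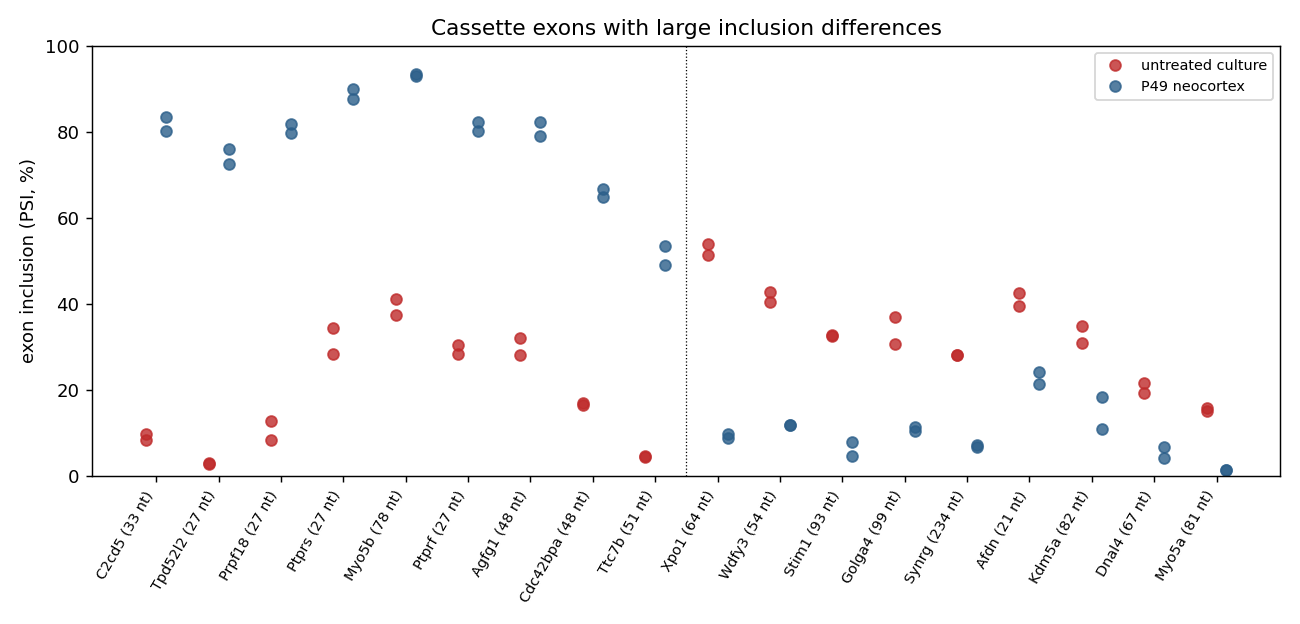
Percent inclusion (PSI) in each library for 18 exons among those with the largest differences, all with both flanking junctions in use. Red points are untreated cultures and blue points P49 neocortex, exon lengths are in nucleotides, and a dotted line separates the 9 lower exons from the 9 higher ones. Tpd52l2 stands at 2.95% and 2.74% in cultures against 75.9% and 72.6% in tissue.

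Losses of inclusion were most frequent in the shortest exons, and so were the fewer gains. Of 147 exons of 3 to 27 nt, 34 were lower in cultures (23.1%) and 4 higher (2.72%). Of 454 exons of 28 to 60 nt, 40 were lower (8.81%) and 9 higher (1.98%). Of 1178 exons of 61 to 120 nt, 50 were lower (4.24%) and 20 higher (1.7%). Of 1023 longer ones, 31 were lower (3.03%) and 9 higher (0.88%). Among the 95 shortest exons with both junctions in use, 26 were lower and 2 higher. Coding exons that are a multiple of 3 nt long, which can be skipped without a shift of reading frame, had 78 lower and 25 higher of 682, and other coding exons 13 lower and 3 higher of 529. The difference between these classes was not tested. In the same libraries the general neuronal markers summed to 2574 and 2695 CPM in cultures and 9779 and 9821 CPM in P49 neocortex. The share of neurons was not measured, and whether it has a part in these losses was not tested.

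The genes known as hosts of neuronal exons held 67 tested exons, of which 6 were lower (8.96%, against 5.53% of all exons tested) and 2 higher (2.99%, against 1.5%). The difference from all exons was not tested. Camk2g, a calcium-dependent kinase, included its 63-nt exon at 11% and 12.2% in cultures, against 55.5% and 55.9% in P49 neocortex (difference -44.1 points, adjusted p = 1.2e-18), Ank2, a membrane adaptor of axons, a 36-nt exon at 8.5% and 8.87% in cultures, against 44.3% and 42% in P49 neocortex (difference -34.4 points, adjusted p = 1.2e-18), and Ank3, the adaptor of the axon initial segment, a 24-nt exon at 2.19% and 6.63% in cultures, against 22% and 23.6% in P49 neocortex (difference -18.4 points, adjusted p = 2.0e-07). A 78-nt exon of Ptbp1 itself was included at 24.2% and 29.1% in cultures, against 49.1% and 51.7% in P49 neocortex (difference -23.7 points, adjusted p = 6.6e-04), a call lost with the lower junction alone (difference -12.8 points, adjusted p = 0.092). The exons of Src and Clip1 (lower) and of Scn8a and a 12-nt exon of Ank3 (higher) each lost their call in at least 1 alternative: all 4 with the lower junction alone, where Clip1 had a difference of -6.09 points, Clip1 also without either culture library or P49 library 1, and Ank3 without control culture library 2.

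Scn2a, a sodium channel of axons, carries a pair of exons of 92 nt that replace each other in one of its voltage-sensing segments and are known as the neonatal and the adult form. Of the reads into the next exon, the share that came from the upstream, neonatal exon was 57.9% and 46.3% in cultures, against 2.71% and 1.71% in P49 neocortex, and 16.4% and 15.7% in P10 neocortex. The rest came from the downstream, adult exon, with 42.1% and 53.7% in cultures against 97.3% and 98.3% in P49 neocortex. The groups did not overlap, which largely follows from the choice of Scn2a among the largest losses of inclusion. The adjusted p for the neonatal junction was 1.2e-16.

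Splice site choice compared junctions that share one end. Whether their other ends lie in first or last exons was not tested, so choice of transcript start or end may enter. Of 28573 junctions tested at 12984 shared 5′ sites, 587 (2.05%) differed by at least 10 points of usage at an adjusted p of 0.05, and of 28662 at 12152 shared 3′ sites 967 (3.37%), of which 172 and 328 were not in the annotation. Without control culture library 2 the count at 3′ sites was 644. In Sept8, a septin of the cytoskeleton, the junction to the nearer 3′ end was used at 85.9% and 81.1% in cultures, against 33.7% and 30.2% in P49 neocortex, and the one 265 bases further at 0.514% and 2.03% in cultures, against 58.4% and 64.9% in P49 neocortex (adjusted p = 9.9e-08 and 8.2e-16). P10 neocortex, averaging 80.2% and 3.24%, lay near the cultures. Slc24a4, a sodium, calcium and potassium exchanger, has a pair of junctions whose 5′ ends lie 57 bases apart. The shorter (chr12:102230494-102234681) was used at 76.5% and 73.3% in cultures, against 1.54% and 0.654% in P49 neocortex (adjusted p = 1.5e-15), and P10 neocortex averaged 0.485%.

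Other pairs shared their 3′ end and differed widely in intron length. Rgs12, a regulator of G protein signalling, used the junction over the longer intron (23874 bases, chr5:34975334-34999207) at 80.1% and 81.9% in cultures, against 25.3% and 30.3% in P49 neocortex (adjusted p = 9.8e-07), and Tsc22d4, a transcriptional regulator, the junction over 7315 bases at 60.5% and 64.2% in cultures, against 13.7% and 18.6% in P49 neocortex (adjusted p = 6.3e-15). In Nrcam, an adhesion molecule of axons, the junction over the longer of a pair of introns was used at 77% and 60.2% in cultures, against 14.4% and 17.5% in P49 neocortex (adjusted p = 8.4e-07). The junction over the shorter intron lost its call without control culture library 1 (adjusted p = 0.055). The deacetylase Hdac7 used the junction over the longer intron at 86.6% and 78.6% in cultures, against 17% and 24.4% in P49 neocortex (adjusted p = 5.3e-07), and the actin crosslinker Flna at 87.2% and 83.2% in cultures, against 38.5% and 20.5% in P49 neocortex (adjusted p = 3.2e-05). The P49 libraries were less alike for Flna than for Hdac7. In both genes the longer junction spans a pair of shorter ones, each used less in cultures, and so skips the stretch between them. Slc3a2, the heavy chain of amino acid transporters, used its main junction at 48.7% and 52.5% in cultures, against 100% and 99.2% in P49 neocortex. Among junctions that share a 5′ end, Sept11, another septin, used one at 74.4% and 70.3% in cultures, against 7.7% and 5.88% in P49 neocortex (adjusted p = 5.3e-18).

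For exons without a listed skipping junction, each annotated junction was set against the rest of its gene, as a percent of the 75th percentile of the gene's junction counts in that library, here called relative use. This measure was added after the data were seen. Its log2 ratios were computed with 1 read added to each count. The adjusted p-values come from edgeR's diffSpliceDGE, which sets a junction against its gene's other junctions and not against the 75th percentile. A call needed an adjusted p of 0.05 and a 2-fold ratio. Of 122201 junctions in 10183 genes, 1690 (1.38%) were used at least 2-fold more in cultures and 1186 (0.971%) at least 2-fold less, in 1414 genes. Over genes with at least 10 tested junctions, the median log2 ratio went with position in the gene, 0.17 in the tenth nearest the 5′ end and -0.12 in the tenth nearest the 3′ end. Its part in single calls was not tested. Of 102675 internal exons with both flanking junctions tested, 510 (0.497%) had both called higher and 357 (0.348%) both lower. Exons of 3 to 27 nt again had the largest shares in both directions, with 44 of 576 lower (7.64%) and 8 higher (1.39%). Exons over 120 nt had 120 lower (0.228%) and 249 higher (0.473%) of 52631. As before, the difference between length classes was not tested.

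**Figure D4:**
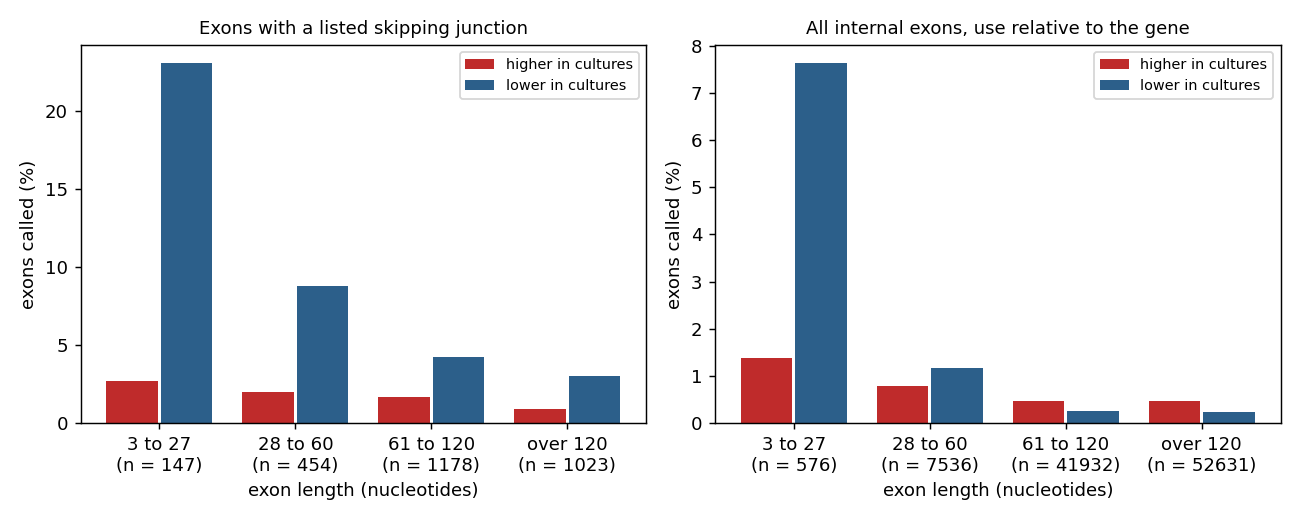
Percent of exons called higher (red) and lower (blue) in untreated cultures against P49 neocortex, by exon length in nucleotides, for exons with a listed skipping junction (left) and for all internal exons by use relative to their gene (right). The numbers of exons tested stand under each pair of bars. Exons of 3 to 27 nt have 23.1% lower on the left and 7.64% lower on the right.

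Among the short exons used less in cultures, those of 4 genes are described, chosen after their values were seen. Cadps, which primes dense-core vesicles, used a 21-nt exon at 2.15% and 1.74% in cultures, against 35.5% and 32.1% in P49 neocortex (log2 ratio -4.01, adjusted p = 1.7e-36 and 6.7e-36 for its left and right junctions), and Picalm, a clathrin assembly protein, a 24-nt exon at 12.5% and 16.1% in cultures, against 76.8% and 78.9% in P49 neocortex (log2 ratio -2.45, adjusted p = 5.4e-38 and 8.6e-38 for its left and right junctions). Nrxn3, a presynaptic adhesion molecule, used a 27-nt exon at 7.91% and 8.41% in cultures, against 35.3% and 42.3% in P49 neocortex. In the kinase Src, an 18-nt exon known to mark the neuronal form was used at 26.8% and 35.1% in cultures, against 67.6% and 60% in P49 neocortex (log2 ratio -1.05, adjusted p = 1.3e-12 and 1.8e-09 for its left and right junctions). In all 4 both cultures lay below both tissues, which their choice fixes, and the groups did not overlap for 50.3% of all internal exons tested. P10 neocortex averaged 17.6% for Cadps and 57.9% for Src.

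The microexons of these genes are shown because their inclusion separates the cultures from adult cortex, again with the exon in capitals.
Cadps (chr14:12468346-12468366, minus strand, 21 nt): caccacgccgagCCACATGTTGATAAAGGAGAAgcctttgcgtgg
Picalm (chr7:90194273-90194296, plus strand, 24 nt): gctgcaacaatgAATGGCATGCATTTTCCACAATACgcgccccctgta
Nrxn3 (chr12:89517906-89517932, plus strand, 27 nt): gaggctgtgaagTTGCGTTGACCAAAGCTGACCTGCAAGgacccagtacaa
Src (chr2:157458843-157458860, plus strand, 18 nt): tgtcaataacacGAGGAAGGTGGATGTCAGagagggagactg

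A few microexons were used more in cultures. Clasp2, a protein that stabilises microtubule ends, has a pair of 27-nt exons, the first used at 21.1% and 25% in cultures, against 5% and 4.36% in P49 neocortex and the second at 22.9% and 26.3% in cultures, against 3.65% and 3.67% in P49 neocortex. P10 neocortex averaged 38.2% and 40.8% for them, above the cultures. Prom1, a protein of membrane protrusions, used a 27-nt exon at 45.5% and 47.3% in cultures, against 5.98% and 6.35% in P49 neocortex, and the polarity kinase Mark3 a 27-nt exon at 49% and 49.8% in cultures, against 16.6% and 16% in P49 neocortex.

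Other exons used less in cultures lay in Mapt, Grin1, Cacna1a and Phldb1. Mapt, the axonal microtubule protein tau, has a pair of 87-nt exons that lengthen its amino end in mature neurons. The first was used at 2.11% and 1.98% in cultures, against 18.8% and 17.6% in P49 neocortex (log2 ratio -3.39, adjusted p = 3.1e-18 and 4.2e-18 for its left and right junctions), and the second at 0.853% and 0.718% in cultures, against 14% and 13.6% in P49 neocortex (log2 ratio -4.07, adjusted p = 4.2e-18 and 1.8e-18 for its left and right junctions). Grin1, the obligatory NMDA receptor subunit, used a 63-nt exon at 1.46% and 1.16% in cultures, against 18.2% and 14.5% in P49 neocortex (log2 ratio -3.70, adjusted p = 1.1e-32 and 1.3e-30 for its left and right junctions). In Cacna1a, the calcium channel of fast transmitter release, a 97-nt exon was used at 1.96% and 2.31% in cultures, against 54.5% and 54.2% in P49 neocortex and a 36-nt exon at 16.6% and 17.4% in cultures, against 95.5% and 94.4% in P49 neocortex. Phldb1, which anchors microtubules at the cell cortex, used a 33-nt exon at 0% and 0.684% in cultures, against 59.7% and 64.7% in P49 neocortex, with 0 reads in 1 culture.

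App, the amyloid precursor protein, moved the other way. Its 168-nt exon, which encodes the Kunitz protease inhibitor domain, was used at 23.4% and 21.9% in cultures, against 3.92% and 3.37% in P49 neocortex (log2 ratio 2.69, adjusted p = 1.2e-47 and 3.0e-45 for its left and right junctions), and the 57-nt exon after it at 21.1% and 20.2% in cultures, against 3.04% and 2.66% in P49 neocortex (log2 ratio 2.86, adjusted p = 5.5e-48 and 1.2e-47 for its left and right junctions). The form without either exon is known as the main one of neurons. P10 neocortex averaged 3.05% for the 168-nt exon, near the P49 value. Markers of cell types also differed between the groups. The reactive glia list summed to 4238 and 3916 CPM in cultures and 191 and 191 CPM in P49 neocortex. Vim alone had 3661 and 3331 CPM of these culture sums. The general neuronal list summed to 2574 and 2695 CPM in cultures and 9779 and 9821 CPM in P49 neocortex. Whether cell types have a part in the App result was not tested. App as a gene had 1845 and 1868 CPM in cultures, against 3384 and 3481 CPM in P49 neocortex. Both App exons are shown with the Mapt pair because their use differed in opposite directions.
App (chr16:85043576-85043743, minus strand, 168 nt): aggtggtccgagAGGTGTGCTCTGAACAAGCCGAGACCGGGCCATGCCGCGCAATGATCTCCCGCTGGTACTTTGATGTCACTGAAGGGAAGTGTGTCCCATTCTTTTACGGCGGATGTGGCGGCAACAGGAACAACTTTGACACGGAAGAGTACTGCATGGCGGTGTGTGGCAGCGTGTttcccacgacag
App (chr16:85040251-85040307, minus strand, 57 nt): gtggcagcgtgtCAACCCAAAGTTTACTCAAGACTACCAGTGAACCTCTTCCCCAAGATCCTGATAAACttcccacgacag
Mapt (chr11:104287123-104287209, plus strand, 87 nt): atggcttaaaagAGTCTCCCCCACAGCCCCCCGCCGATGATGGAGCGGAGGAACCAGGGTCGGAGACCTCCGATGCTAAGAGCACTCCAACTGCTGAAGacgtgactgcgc
Mapt (chr11:104289908-104289994, plus strand, 87 nt): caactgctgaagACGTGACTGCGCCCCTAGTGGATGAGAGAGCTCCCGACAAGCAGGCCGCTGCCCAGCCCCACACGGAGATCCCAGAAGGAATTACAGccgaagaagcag

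**Figure D5:**
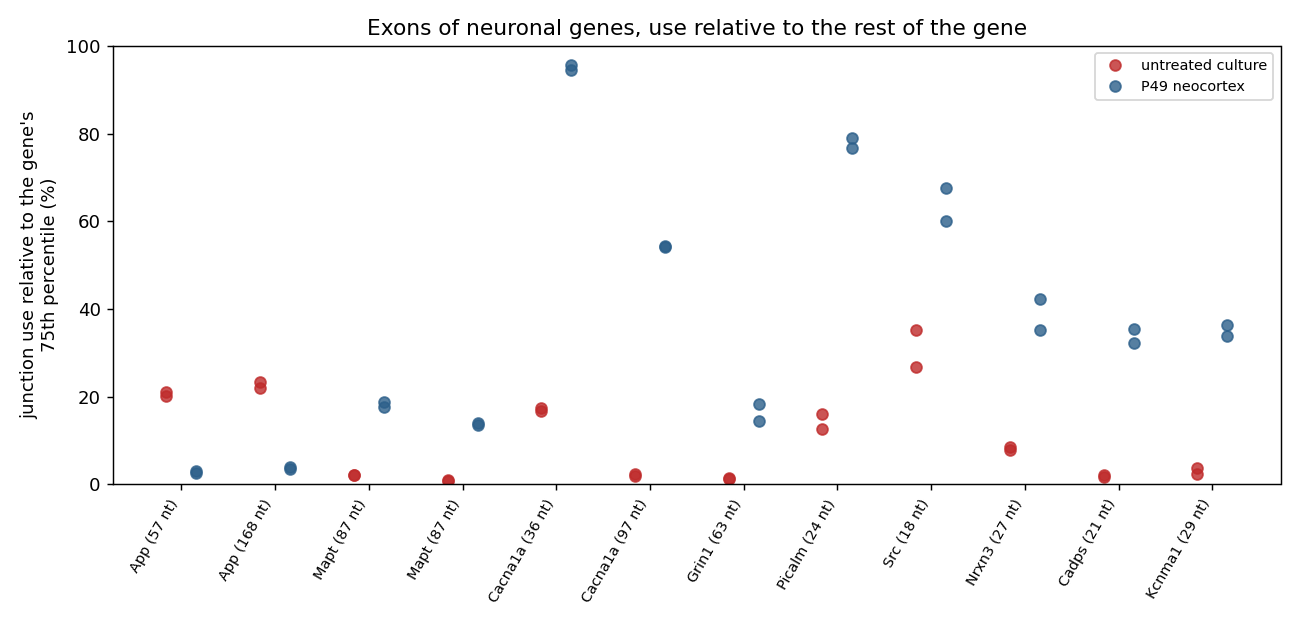
Relative use of 12 exons in 9 genes, as a percent of the 75th percentile of the gene's junction counts, in each library. Red points are untreated cultures and blue points P49 neocortex, and exon lengths are in nucleotides. The App exons lie higher in cultures, near 20%, and the exons of the other 8 genes higher in tissue. The genes were chosen after their values were seen.

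Of the 24 exons listed for the largest changes of relative use, 12 in each direction, Myh10, a non-muscle myosin, used a 63-nt exon at 0.31% and 0.063% in cultures, against 9.77% and 8.41% in P49 neocortex, and Camta1, a calmodulin-binding transcription factor, a 31-nt exon at 1.88% and 3.15% in cultures, against 68% and 58.2% in P49 neocortex. Used more in cultures were a 127-nt exon of the exchange factor Arhgef4 at 60.9% and 50% in cultures, against 2.94% and 3.73% in P49 neocortex, a 93-nt exon of Kalrn, an exchange factor of dendritic spines, at 35.2% and 41.2% in cultures, against 4.29% and 4.44% in P49 neocortex, and an 84-nt exon of the synaptic scaffold Ppp1r9a at 34.1% and 31.4% in cultures, against 2.49% and 1.58% in P49 neocortex. The 5292-nt exon of Dst, a giant linker of filaments, was used at 12.4% and 10.3% in cultures, against 0.974% and 0.516% in P49 neocortex. The groups did not overlap for these exons, which their choice fixes, and they did not overlap for 50.3% of all internal exons tested.

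Junctions that were absent from a whole group were few. Of the called junctions, 11 had 0 reads in both cultures and a relative use of at least 10% in both P49 tissues, and 9 had 0 reads in both P49 tissues and at least 10% in both cultures. The first kind included a junction of Lpar1, a receptor for lysophosphatidic acid in oligodendrocytes (75.1% and 69.3% in P49 neocortex), one of Adora2a, the striatal adenosine receptor (73.7% and 72.2% in P49 neocortex), and one of Cux2 (25.6% and 24% in P49 neocortex). The second kind included one of Slc3a2 (11.4% and 11.7% in cultures) and one of Fgfr1op2 (21% and 17.5% in cultures). In 5 of these 9 junctions (in Bbs7, Noc2l, Trmt1l, Ubr2 and Utp20), 1 P10 library was at 0 and the other at 22.6% to 100.3%, so the P10 replicates did not agree on them, and the cause was not tested. Arl6, of the first kind, had the same split at P10, with 25.6% and 0%.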

How the data were processed

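Polyadenylated RNA was sequenced in stranded libraries, and the junction counts are whole numbers of spliced reads per intron as the authors deposited them, not normalised. Per the submitters' processing notes, reads were aligned with STAR 2.4.0f1 to the mouse genome build GRCm38 (mm10). The sources used here give no filter on the counted reads. The table has 638144 rows with 64 cells under 67 header names, so names were shifted by 3, and its header carries no replicate letters. The untreated and P49 columns were identified as those whose names hold neither DRB nor P10, and 76 other per-library columns were not used. Each of 608954 distinct coordinates was counted once.

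Genes were summed over introns of GENCODE release 21 and tested with edgeR 4.0.16 (R 4.3.3; TMM, filterByExpr, quasi-likelihood, 8 libraries in the fit, Benjamini-Hochberg adjustment). Those 8 were the untreated, DRB-treated, P10 and P49 libraries, and the splice fits used the same ones. Splice choices were tested with edgeR's diffSpliceDGE, for PSI and shared sites on events or sites with at least 20 reads in each of the 4 libraries. For relative use, a junction needed a mean of at least 20 reads over the 4 libraries. The gene's 75th percentile had to reach 20 in each of them. The tests were checked on simulated counts. Few genes were changed in that simulation, whereas 76.1% were called here, so it does not give error rates for gene data like these. Alternatives were DESeq2 1.42.0, no filter, only the 4 libraries, all listed coordinates, other read minimums and thresholds, and each library left out. The labels do not say whether libraries came from separate cultures or animals, so p-values reflect differences among these libraries only, possibly technical ones.

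Named were the 10 largest changes per direction, up to 4 members per list by smallest p, the 8 most abundant lacking genes per direction, the 12 largest called exons and 8 largest called junctions per direction and site, and called exons of known neural host genes. Outside these rules, and chosen after their values were seen, are Aldoc, App, Atf3, Ddx3y, Fezf2, Gabra5, Gfap, Grin2a, Grin2b, Kcnc1, Kdr, Map2, Mbnl2, Mt2, Myh11, Ptbp2, Qk, Rbfox2, Reln, Slc1a2, Sox9, Srrm3, Srrm4, Tmem119, Trem2, Vip, genes listed without values, and the exons described by relative use. All members and gene lists were chosen with earlier results of these data known. Some results that these rules name are not reported here.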

Additional observations from a re-analysis of the deposited data

How the results depend on the processing

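Gene counts stayed within 1.5 times of the reported ones under every alternative run, with 5536 (DESeq2) to 6282 genes higher and 5393 to 5969 lower. All 1248 values of named genes under these alternatives kept their direction and their side of the threshold. So did 199 of 213 for named exons measured by PSI and 197 of 201 for named junctions at shared sites. The other 18 kept their direction and lost their call, and no value reversed. The exons described by relative use are not among these values. Most named genes, exons and junctions were chosen for large changes or small p-values in these same libraries. That choice largely fixes that they keep their calls. Exon and junction counts depended on the thresholds. With at least 100 reads, exons higher in cultures numbered 25, junctions at 3′ sites 621, and junctions within genes 539 higher and 462 lower. With a 25-point difference, 13 exons were higher and 82 lower, and 317 junctions at 5′ sites and 471 at 3′ sites were called. With annotated introns only, 642 junctions at 3′ sites were called, and with a 4-fold change 493 junctions within genes were higher and 411 lower. Leaving out 1 library at a time gave 32 to 41 exons higher, 126 to 148 lower, 400 to 483 junctions at 5′ sites, 644 to 751 at 3′ sites, and 1363 to 1526 higher and 991 to 1061 lower within genes. The lone library left in a group was then assumed to vary like the other groups. By construction, fewer features are tested with at least 100 reads or with annotated introns only, fewer samples enter when a library is left out, and the higher thresholds call fewer of the same features. The Scn2a exon had no value on its lower junction. No paired analysis was possible because the columns carry no replicate letters. Small changes of rarely included exons and genes with few junction reads are limited by depth.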

Other observations

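Within genes, 13 junctions had 0 reads in 1 P49 library and a relative use of at least 25% in the other, while 0 junctions had this split between the cultures. A junction of Myo9b, an unconventional myosin, stood at 88.7% and 86.1% in cultures, and at 0% and 82.6% in P49 neocortex. A junction of Xpo5, which exports microRNA precursors, stood at 76.0% and 78.7% in cultures, and at 26.0% and 0% in P49 neocortex. One of Smdt1, a subunit of the mitochondrial calcium uniporter, stood at 0% in both cultures, and at 85.4% and 0% in P49 neocortex. The cause was not tested.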
